A study of Mus musculus with 60 samples.

Results

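Ribosome biogenesis factors are the nucleolar and late-acting proteins that turn the precursor of ribosomal RNA into the small and large ribosomal subunits. A named set of 44 such genes was described in mouse pancreatic islets, and 43 of them were on the array under 1 gene symbol, of 18193 genes so named. Mrto4 was not found under a single symbol and has no value here. Each gene was represented by the probe set with the widest interquartile range over the arrays used, a choice that favours larger differences. All 43 had a range above the filter that left 13176 genes tested. Membership was set by gene name.

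In the nucleolus, box C/D particles guide methylation of ribosomal RNA and box H/ACA particles guide its pseudouridylation. The small-subunit processome then folds and cleaves the precursor, late small-subunit factors finish the 18S end, and a separate series of proteins assembles the large subunit. MYC is a transcription factor that is widely known to raise genes of this pathway together when cells grow. Ribosomal proteins, the building blocks that these factors assemble, are a separate group of genes.

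All mice were male CBA-C57BL/6 animals carrying pIns-MYCERTAM, a MYC fusion driven by the insulin promoter in beta cells that 4-hydroxytamoxifen (4OHT) switches on. MycON mice received 1 mg of 4OHT daily into the abdomen and MycOFF mice received peanut oil. Both sets were further divided into mice given exendin-4 (exenatide, an agonist of the GLP-1 receptor), at 50 µg/kg under the skin 2 times a day starting 2 days earlier, and mice given water. Islets were cut by laser from frozen sections at 4, 8, 16, 32 and 72 h, in 20 groups of 3 arrays. The age is 8 to 12 weeks in one label and 3 months in another. The submitters left out 8 of 60 arrays, so that 2 or 3 per group remained. With water these were 13 MycON and 12 MycOFF arrays, and with exendin-4 they were 12 MycON and 15 MycOFF arrays. No mice without the fusion received 4OHT, so an effect of the drug and an effect of MYC cannot be told apart. The arrays are labelled biological replicates but are not tied to named animals, so p-values measure the spread between these samples.

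The values are log2 deviations, each relative to the median of that probe set over 60 arrays, so levels of different genes cannot be compared and the labelled tissue cannot be checked by absolute marker levels. Over the 52 arrays used, the mean deviation of 8 beta cell markers ran from -1.19 to 1.39. The array with the widest spread, MycOFF exendin-4 at 16 h, replicate 3 (standard deviation over probe sets 0.946), had an acinar marker mean of 3.10 and a median over the 43 factors of -1.27. The array next in spread, MycOFF exendin-4 at 72 h, replicate 2 (standard deviation 0.807), had a stromal marker mean of 3.30 and a median over the factors of -1.02. These libraries are low in the factors in the control state, so counts are given with and without both.

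Averaged over the 5 times, the ribosome biogenesis factors lay higher with MYC on than with MYC off, for either injection. With water, all 43 differences were above 0 and 13 passed limma's test at an adjusted p under 0.05, where 3.94% of all genes tested were called higher. With exendin-4, 42 of 43 were above 0 and 17 passed, where 4.56% of all genes were called higher; the exception was Heatr1, a processome scaffold protein, at -0.05 ± 0.36 (SE). The median difference of the 43 genes was 0.72 with water and 0.72 with exendin-4, against -0.03 and -0.02 over all genes tested. No member was called lower. In these bulk samples a change in the share of a cell type and a change in RNA per cell cannot be told apart. Leaving out both arrays of widest spread gave 17 called members with water and 9 with exendin-4. Of all 13176 genes, 644 and 539 were then called higher, against 519 and 601. The mean of the beta cell markers had a median of -0.05 over 25 MycON and 0.57 over 27 MycOFF arrays, and 1 of 8 macrophage markers was called higher with water and 3 of 8 with exendin-4. With water 2 of 8 beta cell and 1 of 5 endothelial markers were called lower, and with exendin-4 0 of each. Of 9 proliferation markers, 7 were called higher with water and 6 with exendin-4, with medians of 1.85 and 1.83. Of 7 acinar markers, all were above 0 with each injection, with medians of 0.47 and 0.41. None of these acinar markers was called, and none had an unadjusted p under 0.05. The part of these markers in the result was not tested. With exendin-4 the count fell from 17 to between 9 and 11 when any 1 of 8 arrays was left out. Between 419 and 516 of all genes were then called higher, against 601. The 8 arrays were MycON exendin-4 4 h replicate 2 (10), 8 h replicate 1 (10), 16 h replicate 3 (9) and 32 h replicates 1 (11) and 2 (11), and MycOFF exendin-4 8 h replicate 1 (10), 16 h replicate 3 (10) and 32 h replicate 1 (9).

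**Figure D1:**
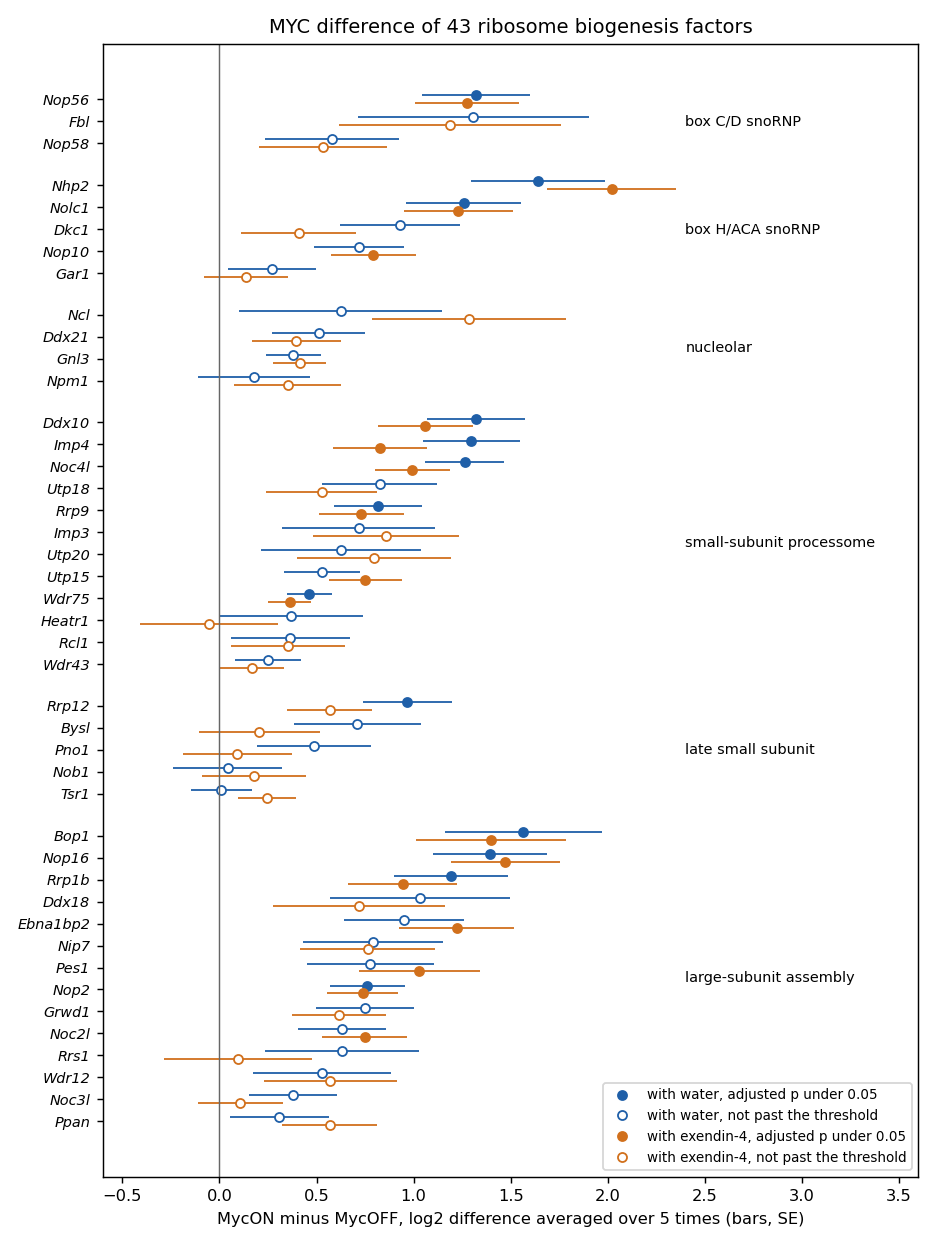
MycON minus MycOFF difference (log2, averaged over 5 times, bars are SE) of each of the 43 factors by role, with water (blue) and exendin-4 (orange); filled points have an adjusted p under 0.05. Nearly all points lie to the right of 0, from 0.01 (Tsr1) to 1.64 (Nhp2) with water and from -0.05 (Heatr1) to 2.02 (Nhp2) with exendin-4.

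The calls of both injections overlapped in 12 genes: Bop1, Ddx10, Imp4, Nhp2, Noc4l, Nolc1, Nop16, Nop2, Nop56, Rrp1b, Rrp9 and Wdr75. These are 12 of the 13 called with water and 12 of the 17 called with exendin-4. Rrp12 passed with water (0.97 ± 0.23, adjusted p = 0.00780) and not with exendin-4 (0.57 ± 0.22, adjusted p = 0.135). Ebna1bp2, Noc2l, Nop10, Pes1 and Utp15 passed with exendin-4 and not with water. None of these 6 genes had a difference between injections that passed its own test, as given below. Across the 43 genes the 2 sets of differences, from separate arrays, correlated at a Pearson r of 0.81; over all genes tested r was 0.79. The other 25 factors passed in neither.

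Box H/ACA proteins held the largest difference. Nhp2, a core protein of these particles, had a lowest, median and highest deviation of -0.96, 0.54 and 1.97 on 13 MycON water arrays and of -2.07, -0.68 and 0.52 on 12 MycOFF water arrays. With exendin-4 the same 3 values were -0.04, 0.91 and 2.70 on 12 MycON arrays and -2.19, -0.95 and 0.41 on 15 MycOFF arrays. The groups overlapped, and 7 of 13 and 9 of 12 MycON arrays lay above the highest MycOFF array of the same injection. The difference of Nhp2 was 1.64 ± 0.35 with water (3.12-fold, adjusted p = 0.00299) and 2.02 ± 0.33 with exendin-4 (4.06-fold, adjusted p = 1.77e-04). A second Nhp2 probe set gave 1.26 and 1.69.

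Nolc1, a chaperone of small nucleolar particles, ran from -1.61 through a median of 1.53 to 2.89 on MycON water arrays and from -1.41 through -0.10 to 1.06 on MycOFF water arrays. With exendin-4 it ran from -1.58 through 1.26 to 2.06 on MycON arrays and from -1.45 through -0.43 to 1.19 on MycOFF arrays. The 4 lowest MycON values were all at 72 h. The Nolc1 differences were 1.26 ± 0.29 (adjusted p = 0.00719) with water and 1.23 ± 0.28 (adjusted p = 0.00620) with exendin-4. Nop10, another core protein, passed with exendin-4 only (0.79 ± 0.22, adjusted p = 0.0265) and measured 0.72 ± 0.23 with water. Its call was lost with any 1 of 6 arrays left out (adjusted p up to 0.0958). Dkc1, the pseudouridine synthase dyskerin, measured 0.93 ± 0.31 and 0.41 ± 0.30, and Gar1 measured 0.27 ± 0.23 and 0.14 ± 0.22, none past the threshold.

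Of the 3 core box C/D proteins, Nop56 passed with both injections. It ran from -1.18 through 0.91 to 1.93 on MycON water arrays and from -1.36 through -0.44 to 0.21 on MycOFF water arrays, and 10 of 13 MycON arrays exceeded every MycOFF array. With exendin-4 it ran from -0.61 through 0.80 to 1.89 on MycON and from -2.12 through -0.65 to 1.25 on MycOFF arrays, and 2 of 12 MycON arrays exceeded every MycOFF array. The differences of Nop56 were 1.32 ± 0.28 (2.50-fold, adjusted p = 0.00306) and 1.27 ± 0.27 (2.42-fold, adjusted p = 0.00267). Fbl, the methyltransferase fibrillarin, had differences nearly as large with about 2 times the error, 1.31 ± 0.60 and 1.19 ± 0.57. Nop58 measured 0.58 ± 0.35 and 0.53 ± 0.33.

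In the small-subunit processome, 5 of 12 genes passed with water and 6 of 12 with exendin-4, and the list's medians were 0.67 and 0.74. Ddx10, an RNA helicase, ran from -0.45 through 0.76 to 1.99 on MycON water arrays and from -1.45 through -0.47 to 0.42 on MycOFF water arrays. Its exendin-4 values ran from -0.51 through 0.26 to 1.44 and from -2.38 through -0.52 to 0.20. All 13 and all 12 MycON arrays lay above the median of the MycOFF arrays. The Ddx10 differences were 1.32 ± 0.25 (adjusted p = 0.00116) and 1.06 ± 0.24 (adjusted p = 0.00600). A second Ddx10 probe set gave 0.08 and 0.11.

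Imp4, a protein of the U3 particle, ran from -0.85 through 0.76 to 1.68 on MycON and from -1.86 through -0.50 to 0.29 on MycOFF water arrays. With exendin-4 the values were -1.77, 0.24 and 1.89 against -1.60, -0.39 and 1.19, with 3 of 12 MycON arrays above every MycOFF array. The Imp4 difference was 1.30 ± 0.25 (adjusted p = 0.00125) with water. With exendin-4 it was 0.83 ± 0.24 (adjusted p = 0.0339), a call lost with any 1 of 15 arrays left out (adjusted p up to 0.0862). Noc4l had the smallest adjusted p with water among the factors (1.15e-04, difference 1.26 ± 0.20) and a difference of 0.99 ± 0.19 with exendin-4 (adjusted p = 0.00134). Rrp9, a U3-specific protein, and Wdr75, a processome subunit, passed with both injections, at 0.82 ± 0.23 and 0.73 ± 0.22 for Rrp9 and 0.46 ± 0.12 and 0.36 ± 0.11 for Wdr75. With water the Rrp9 call was lost without MycOFF water 16 h replicate 3, MycON water 16 h replicate 2 or MycON water 32 h replicate 3, and the Wdr75 call without MycOFF water 16 h replicate 3 (adjusted p = 0.0566). With exendin-4 the calls were lost with any 1 of 13 arrays (Rrp9) or 35 arrays (Wdr75) left out. Utp15 passed with exendin-4 (0.75 ± 0.19, adjusted p = 0.0126). Utp18, Utp20, Imp3, Rcl1, Wdr43 and Heatr1 passed with neither injection.

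Late small-subunit factors had medians of 0.48 with water and 0.21 with exendin-4. Rrp12, an export and maturation factor, was the 1 of 5 called with water, and none was called with exendin-4, where 1 of 5 had an unadjusted p under 0.05. Nob1, the nuclease that trims the end of 18S RNA, measured 0.04 ± 0.28 and 0.18 ± 0.27. Its partner Pno1 measured 0.48 ± 0.29 and 0.09 ± 0.28. Bysl measured 0.71 ± 0.33 and 0.21 ± 0.31, and Tsr1 measured 0.01 ± 0.16 and 0.24 ± 0.15.

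Large-subunit assembly factors passed in 4 of 14 with water and 7 of 14 with exendin-4, with medians of 0.77 and 0.74. Nop16, a nucleolar assembly protein, ran from -1.42 through 1.18 to 2.20 on MycON and from -1.18 through -0.56 to 0.21 on MycOFF water arrays. With exendin-4 it ran from -0.90 through 1.30 to 2.03 and from -2.41 through -0.43 to 0.91. In all, 10 of 13 and 7 of 12 MycON arrays exceeded every MycOFF array of that injection. The Nop16 differences were 1.39 ± 0.29 (2.63-fold, adjusted p = 0.00277) and 1.47 ± 0.28 (2.77-fold, adjusted p = 0.00100).

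The PeBoW complex of Pes1, Bop1 and Wdr12, which processes the precursor of the large-subunit RNAs, was uneven. Bop1 ran from -1.34 through 0.88 to 2.40 on MycON and from -1.70 through -0.78 to 0.17 on MycOFF water arrays. With exendin-4 the values were -0.69, 0.42 and 1.93 against -2.91, -0.36 and 0.82. Its differences were 1.56 ± 0.41 (adjusted p = 0.0156) and 1.40 ± 0.39 (adjusted p = 0.0259). The water call was lost without MycOFF water 72 h replicate 3 (adjusted p = 0.0518), and the exendin-4 call with any 1 of 7 arrays left out. A second Bop1 probe set of narrower range gave 0.16 and 0.01. Pes1 passed with exendin-4 only, at 1.03 ± 0.31 (adjusted p = 0.0447), a call lost with any 1 of 18 arrays left out. Wdr12 measured 0.53 ± 0.36 and 0.57 ± 0.34.

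Ebna1bp2, a nucleolar partner in large-subunit processing, ran from -1.36 through 0.57 to 1.15 on MycON exendin-4 arrays and from -3.68 through -0.59 to 0.52 on MycOFF exendin-4 arrays. On water arrays it ran from -1.26 through 0.64 to 1.89 in MycON and from -1.19 through -0.18 to 0.27 in MycOFF. The difference passed with exendin-4 (1.22 ± 0.29, adjusted p = 0.00945) and not with water (0.95 ± 0.31, adjusted p = 0.0612). A second Ebna1bp2 probe set gave 0.268 with water and 0.126 with exendin-4. Another, of a range under the filter, gave -0.023 and -0.061. Nop2, a cytosine methyltransferase of 28S RNA, passed with both (0.76 ± 0.19 and 0.74 ± 0.18), as did Rrp1b (1.19 ± 0.29 and 0.94 ± 0.28). The exendin-4 call of Rrp1b was lost with any 1 of 14 arrays left out, and that of Noc2l (0.75 ± 0.22) with any 1 of 11. Ddx18, Nip7, Grwd1, Rrs1, Noc3l and Ppan passed with neither injection; Rrs1 had the smallest exendin-4 value, 0.10 ± 0.38.

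None of the 4 multifunctional nucleolar proteins passed in either averaged comparison, and 2 of 4 had an unadjusted p under 0.05 with each injection. Nucleolin (Ncl) measured 0.62 ± 0.52 with water and 1.28 ± 0.50 with exendin-4, and nucleophosmin (Npm1) measured 0.18 ± 0.29 and 0.35 ± 0.28. The helicase Ddx21 measured 0.51 ± 0.24 and 0.40 ± 0.23. Nucleostemin (Gnl3) measured 0.38 ± 0.14 and 0.41 ± 0.14.

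**Figure D2:**
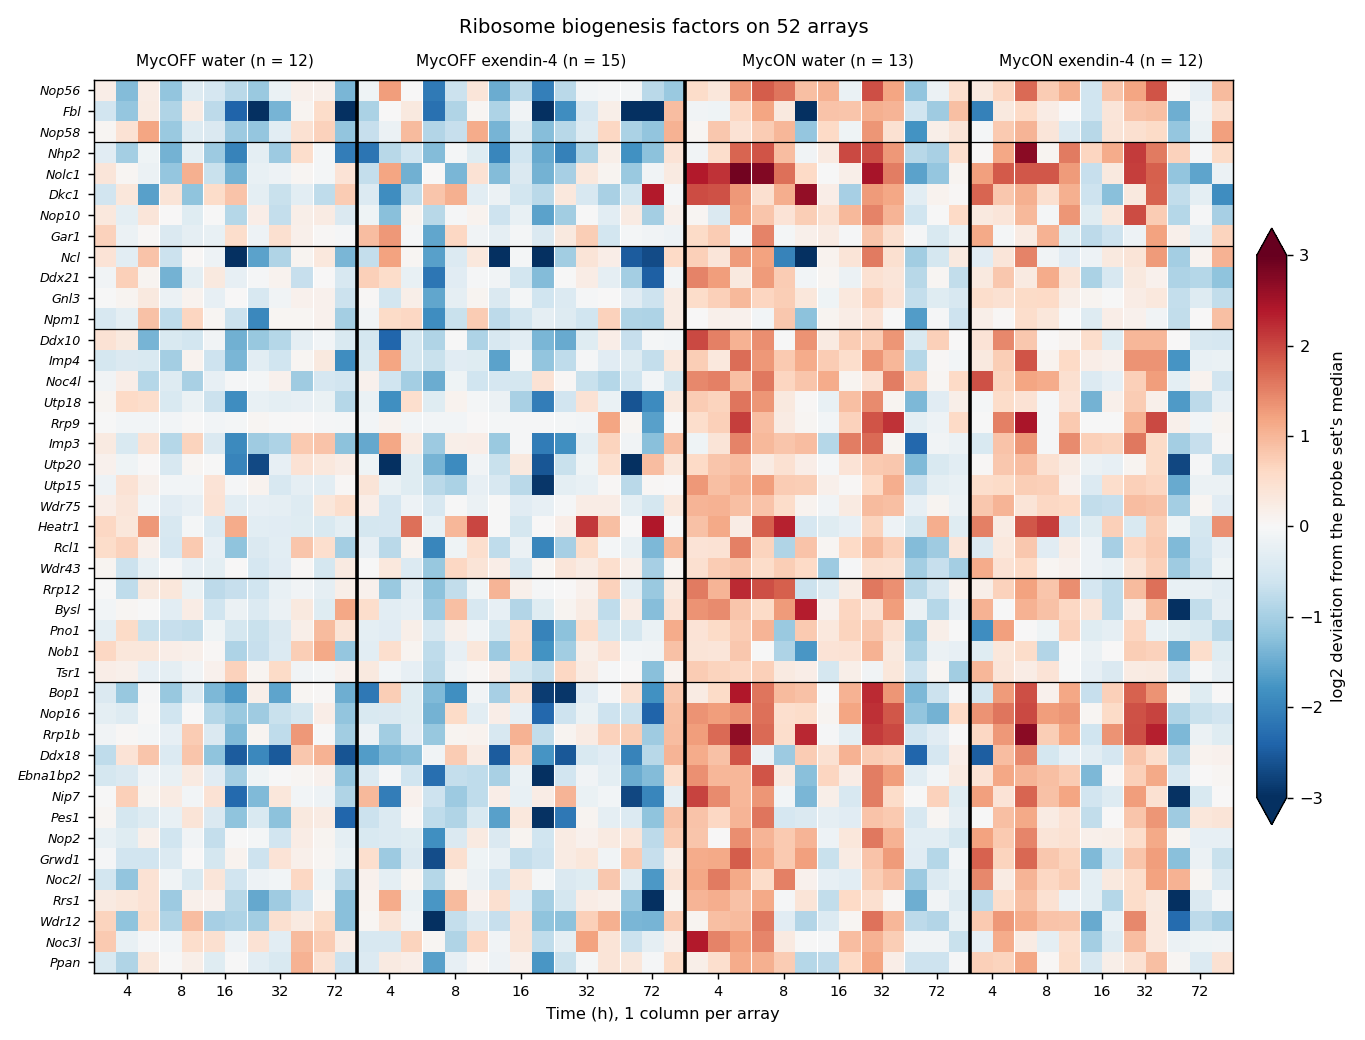
Log2 deviation of each factor (rows, grouped by role with black lines) on each of the 52 arrays (columns, by treatment and time in h); red is above and blue below the probe set's median, and colours end at the ends of the scale bar. MycON arrays at 4, 8 and 32 h are mostly red, and MycON arrays at 72 h are mostly pale or blue; the median of the 43 factors per array ran from 0.74 to 1.05 on MycON arrays at 32 h and from -0.90 to -0.08 at 72 h.

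For 31 of the 43 genes the array held more than 1 probe set, 45 further ones in all. Of these 45, 38 were above 0 with water and 39 with exendin-4. The 37 that also passed the range filter had medians of 0.42 and 0.42, smaller than those of the chosen sets, and 35 of 37 lay above 0 with each injection.

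Promoter sequences are shown because MYC and its partner MAX are known to bind the E-box CACGTG, which reads the same on both strands. RefSeq windows of GRCm38.p6, from 250 bases before to 50 bases after the annotated gene start, were matched by symbol for 38 of the 43 genes. CACGTG occurred in 9 of these 38 (23.7%), against 11.3% of the 10622 tested genes with an entry and 8.09% of all 27025 genes with an entry. The 9 motifs follow in capitals, each in 30 bases read 5′ to 3′ on the strand of the gene.
Imp4, chr1:34439696-34439725, + strand: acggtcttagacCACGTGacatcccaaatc
Nop2, chr6:125131811-125131840, + strand: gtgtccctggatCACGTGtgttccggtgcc
Utp18, chr11:93885769-93885798, - strand: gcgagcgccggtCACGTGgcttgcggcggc
Pes1, chr11:3963965-3963994, + strand: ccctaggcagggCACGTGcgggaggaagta
Wdr43, chr17:71616220-71616249, + strand: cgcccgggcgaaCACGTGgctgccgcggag
Tsr1, chr11:74898092-74898121, + strand: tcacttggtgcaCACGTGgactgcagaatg
Grwd1, chr7:45830740-45830769, - strand: aagggccggagtcgCACGTGtgaaaccgga
Utp20, chr10:88826765-88826794, - strand: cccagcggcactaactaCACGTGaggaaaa
Pno1, chr11:17211540-17211569, - strand: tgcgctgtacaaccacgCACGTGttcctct

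The motif began 121 bases before the start in Imp4, 60 before it in Nop2 and 20 before it in Utp18, and 2 to 37 bases after it in the other 6 genes. Imp4 and Nop2 were called with both injections and had it upstream, so their 250 bases before the start are given whole, with the motif in capitals.
Imp4, chr1:34439579-34439828, + strand: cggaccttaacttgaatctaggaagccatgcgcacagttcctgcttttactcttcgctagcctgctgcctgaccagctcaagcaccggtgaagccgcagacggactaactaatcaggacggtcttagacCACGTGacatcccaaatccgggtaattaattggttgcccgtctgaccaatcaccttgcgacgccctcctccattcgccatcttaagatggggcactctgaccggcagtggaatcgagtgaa
Nop2, chr6:125131633-125131882, + strand: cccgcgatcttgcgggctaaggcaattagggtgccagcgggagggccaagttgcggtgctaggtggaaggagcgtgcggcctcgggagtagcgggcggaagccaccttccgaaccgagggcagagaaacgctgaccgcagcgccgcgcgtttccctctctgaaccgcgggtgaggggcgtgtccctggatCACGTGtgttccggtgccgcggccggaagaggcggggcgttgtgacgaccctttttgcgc

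A variant E-box, CACGCG on either strand (CGCGTG on the other), was found in 12 of the 38 genes (31.6%), against 18.8% of tested genes and 9.27% of all windows. It was present in Nhp2, Nop16, Ddx10 and Nolc1, which were picked for display for their large differences. It was also present in Noc2l, Nop10, Pes1 and Utp15, called with exendin-4 only, and in Bysl, Ddx21, Nip7 and Ppan, called with neither injection. Nop56 and Imp4, also with large differences, lacked it. Differences with and without this variant were not compared. The genes picked for display follow, with the variant in capitals within 30 bases.
Nhp2, chr11:51619764-51619793, + strand: ggaggcggcggcCGCGTGgttcctctatgc
Nop16, chr13:54590029-54590058, - strand: ggagactattaaCACGCGgctctgagagcg
Ddx10, chr9:53248098-53248127, - strand: ttcccggacttgCGCGTGcgcccctgcgcc
Nolc1, chr19:46075810-46075839, + strand: gcaggatgatgaCGCGTGtgggaccggaag

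Differences of genes with and without CACGTG were of similar size. The 9 genes with it had a median of 0.75 with water and 0.62 with exendin-4, and the 29 without it had 0.71 and 0.73. Of the 9, 2 passed with water and 3 with exendin-4, and of the 29, 9 and 13. Tsr1, with the motif 24 bases after its start, measured 0.01 with water. A match is a string in a window and not a measured binding site.

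Over time the MYC difference was present early, smaller at 16 h, large again at 32 h and near 0 in the median at 72 h. With both injections averaged, the median of the 43 genes was 0.88 at 4 h, 0.99 at 8 h, 0.57 at 16 h, 1.02 at 32 h and -0.09 at 72 h. All genes tested had medians between -0.07 and 0.05 at these times. Members called higher numbered 11 at 4 h (1.58% of all genes), 15 at 8 h (3% of all genes), 1 at 16 h (2.06% of all genes), 14 at 32 h (2.36% of all genes) and 0 at 72 h (1.15% of all genes). At 72 h, 3 of 43 members had an unadjusted p under 0.05 and 19 of 43 differences were above 0. Noc4l, Nolc1, Nop16, Nop2, Rrp12, Rrp1b and Wdr75 were called at each of 4, 8 and 32 h, and Nhp2 was the member called at 16 h. The Noc4l call at 32 h was lost when probe sets were averaged. Its other probe sets gave 1.133, 1.062 and -1.056 at that time. Without both arrays of widest spread the counts at 4, 8, 16, 32 and 72 h were 12, 16, 1, 17 and 0. Over all genes they were 267, 500, 187, 417 and 266, against 208, 395, 272, 311 and 152.

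The counts at single times moved with single arrays. At 4 h the count was 5 without MycON exendin-4 4 h replicate 1 and 7 without replicate 2 of either MycOFF group at 4 h. Of all genes, 145 to 178 were then called higher, against 208. At 8 h the count was 7 without MycON exendin-4 8 h replicate 1 and 8 without MycON water 8 h replicate 1. It was 4 without MycOFF water 8 h replicate 1 and 5 without replicate 1 of MycOFF exendin-4 at 8 h. All genes called then numbered 157 to 271, against 395. At 32 h the member count was 7 and 5 without MycON exendin-4 32 h replicates 1 and 2. It was 5 and 6 without MycON water 32 h replicates 2 and 3. All genes called then numbered 159 to 183, against 311. At 16 h the call of Nhp2 was lost without MycON exendin-4 16 h replicate 3, MycON water 16 h replicate 2 or MycOFF water 16 h replicate 3. These gave 164, 298 and 92 calls over all genes, against 272. Leaving out replicate 2 of the MycOFF exendin-4 group at 16 h gave 3 members at 16 h (603 of all genes). Leaving out MycOFF water 16 h replicate 2, MycOFF water 72 h replicate 1 or 3, or replicate 2 of MycOFF exendin-4 at 4 h gave 2. All genes called then numbered 264 to 283.

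**Figure D3:**
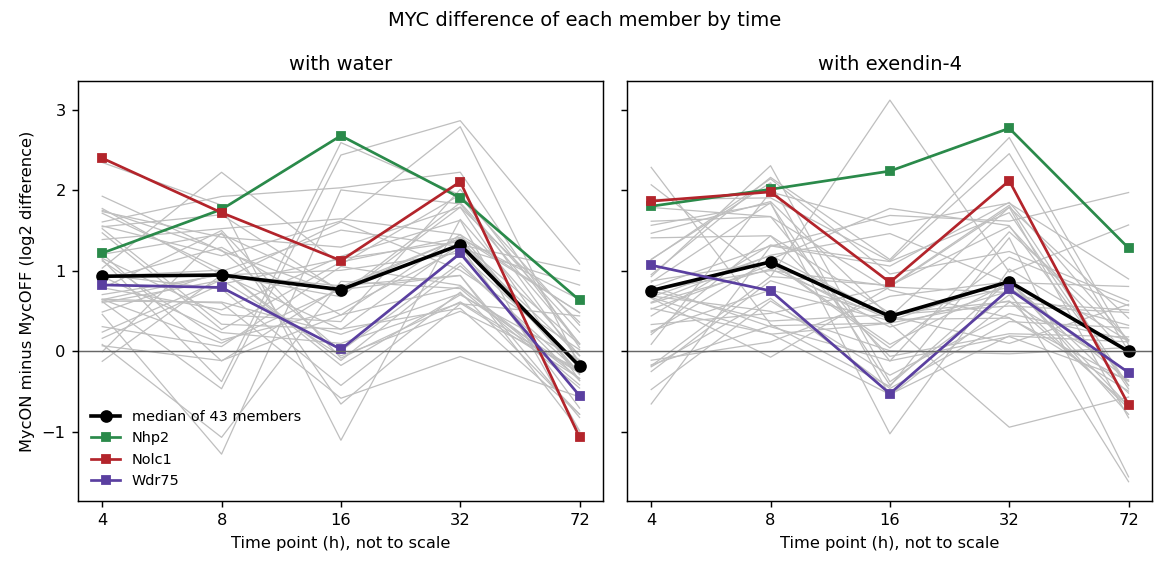
MycON minus MycOFF difference (log2) of each of the 43 factors at 5 times (grey lines; times evenly spaced, not to scale) with water (left) and exendin-4 (right), with the median in black and 3 genes in colour. The median was 0.77 at 16 h and 1.32 at 32 h with water and 0.44 and 0.87 with exendin-4, and it was -0.18 and 0.00 at 72 h.

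Every MycON array lay above every MycOFF array, over both injections, for 13 members at 4 h (2.07% of all genes), 11 at 8 h (3.29% of all genes), 2 at 16 h (3.3% of all genes), 20 at 32 h (5.27% of all genes) and 0 at 72 h (0.395% of all genes). The time of the largest difference was 32 h for 18 members, 4 h for 11, 8 h for 10 and 16 h for 4. The smallest difference was at 72 h for 28 members. The median was smaller at 16 h than at 8 and 32 h with water (0.77 against 0.95 and 1.32) and with exendin-4 (0.44 against 1.11 and 0.87). That dip in the median was not tested. With both injections averaged, the 16 h median was 0.34 with array weights and 0.36 with all 60 arrays, against 0.57. At 16 h 2 of 8 macrophage markers were called higher (list median 1.75). The array MycON exendin-4 16 h replicate 1 had a median of -0.39 over the factors, an acinar marker mean of 3.00, a stromal mean of 2.10 and a macrophage mean of 2.46. At 8 h the beta cell marker mean ran from -1.19 to -0.02 on 6 MycON arrays and from 0.43 to 1.25 on 5 MycOFF arrays, with no overlap, and 1 of 8 beta cell markers was called lower (list median -1.09). The part of these in the 8 and 16 h values was not tested.

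The F test of a change in the MYC difference over the 5 times, on both injections averaged, passed for 4 members, where 1.59% of all genes passed. These were Wdr75 (adjusted p = 5.03e-04), Dkc1 (adjusted p = 0.0116), Nolc1 (adjusted p = 0.0150) and Grwd1 (adjusted p = 0.0279). Leaving out MycOFF water 72 h replicate 3 gave 2 members, and leaving out replicate 2 of MycOFF exendin-4 at 72 h gave 8. Leaving out both arrays of widest spread gave 10. Of all genes, 161, 299 and 308 then passed, against 209. The Nolc1 call was lost without MycOFF water 72 h replicate 3 (adjusted p = 0.0641), and the Grwd1 call with any 1 of 6 arrays left out. Both calls were lost when probe sets were averaged.

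Wdr75 had close MycON values at 4 and 32 h and wider ones at 16 and 72 h. At 4 h its 5 MycON values were 0.81, 1.02, 1.03, 1.03 and 0.89, and the 6 MycOFF values ran from -0.51 through a median of 0.06 to 0.36. At 32 h the 4 MycON values were 0.94, 0.88, 0.94 and 0.89, and the 6 MycOFF values ran from -0.39 through -0.14 to 0.22. At 4, 8 and 32 h the groups did not overlap. At 16 h the 4 MycON values were -0.74, -0.69, -0.11 and 0.28, of which the first 2 (with exendin-4) lay below the 5 MycOFF values (-0.35 to 0.42) and the others within their range. At 72 h the 6 MycON values ran from -1.01 through -0.21 to 0.08 and none exceeded the MycOFF median of 0.32. The differences at 4, 8, 16, 32 and 72 h were 0.95, 0.77, -0.25, 0.99 and -0.41. A second Wdr75 probe set, of a range under the filter, gave 0.08, 0.17, -0.35, 0.11 and -0.05.

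Nolc1 had 5 MycON values at 4 h of 1.24, 1.85, 2.38, 2.17 and 2.89, above the 6 MycOFF values, which ended at 1.19. At 32 h the 4 MycON values were 2.06, 1.79, 2.47 and 1.53 and the MycOFF values ended at 0.32. At 72 h the 6 MycON values ran from -1.61 through -1.16 to 0.09 and the 5 MycOFF values from -1.11 through -0.05 to 0.40, so that the groups overlapped. The Nolc1 difference was 2.13 at 4 h, 2.11 at 32 h and -0.86 at 72 h. The probe sets of Nolc1 disagreed at the last time, since the other 2 gave 1.14 and 0.18 at 72 h and 1.59 and 1.12 at 32 h.

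Dkc1 was highest against its controls at 4 h, with MycON values of 1.74, 0.81, 1.96, 1.90 and 1.30 and MycOFF values from -1.88 to 0.33. At 16 h the MycON values were -0.62, -1.25, 0.20 and -0.99, within or below the MycOFF range of -0.80 to 0.86. The Dkc1 difference was 2.31 at 4 h, 1.07 at 8 h, -0.77 at 16 h, 1.52 at 32 h and -0.80 at 72 h. Its other probe sets gave 1.00 and 1.17 at 4 h and 0.17 and -0.03 at 16 h.

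Nop16 had 5 MycON values at 4 h between 1.25 and 1.60 and 6 MycOFF values between -0.46 and -0.02. At 32 h its 4 MycON values lay between 1.87 and 2.20 and its MycOFF values between -1.06 and -0.20, and neither time showed an overlap. The difference at 32 h was 2.62 (adjusted p = 6.32e-04). At 72 h its MycON values ran from -1.42 to 0.60, inside the MycOFF range of -2.41 to 0.91. Nhp2 had a difference of 0.96 at 72 h, not past the threshold (adjusted p = 0.532), after 2.46 at 16 h (adjusted p = 0.0140).

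**Figure D4:**
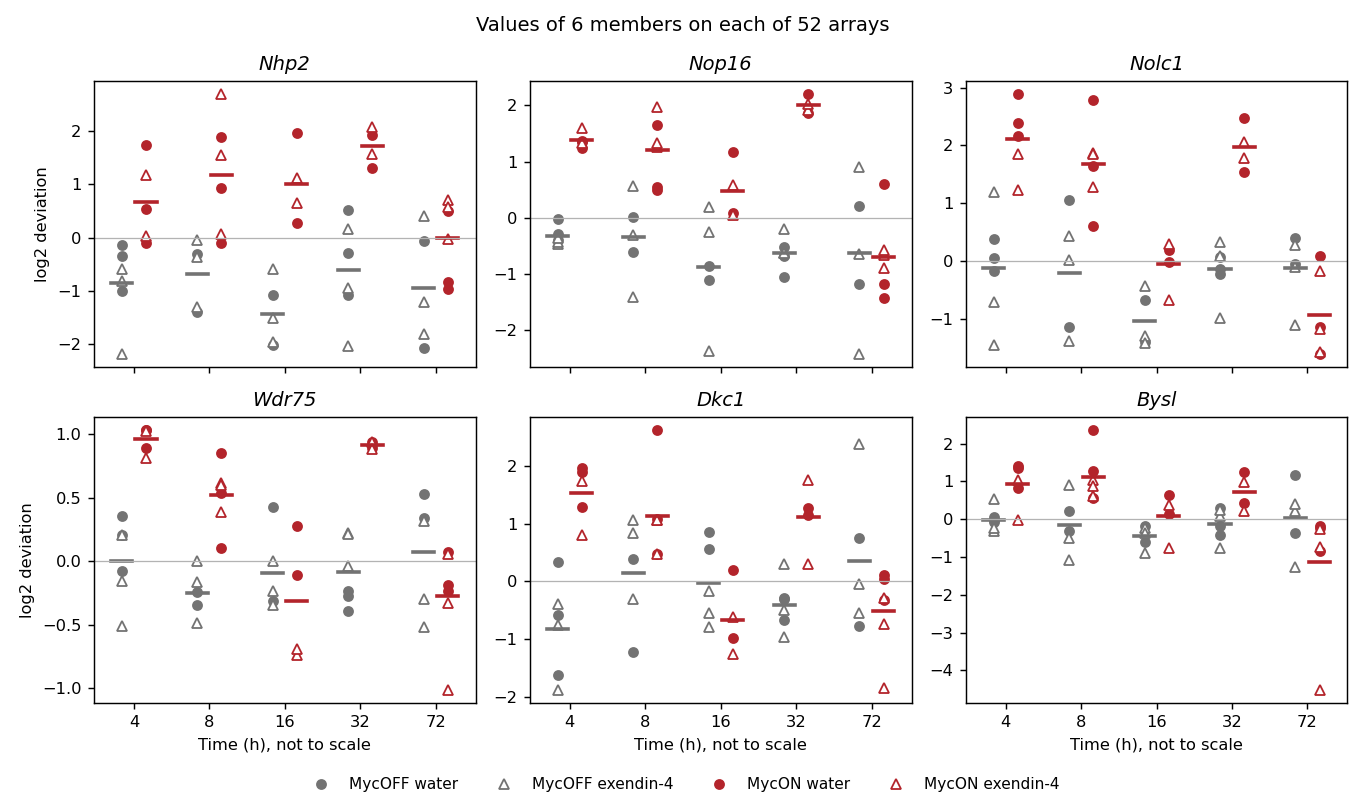
Log2 deviation of 6 factors on every array at each time (times evenly spaced), MycOFF in grey and MycON in red, water as filled circles and exendin-4 as open triangles; horizontal bars are means over both injections. For Nhp2, Nop16, Nolc1 and Wdr75 every MycON point stands above every MycOFF point at 4 and at 32 h; at 72 h the points overlap, and the 6 Nhp2 MycON values all lie above the MycOFF median of -1.22.

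Set against the mean of the 4 earlier times, the MYC difference at 72 h was smaller for 42 of 43 members, and 6 passed the test, where 0.903% of all genes were called lower. They were Nolc1 (-2.63 ± 0.50, adjusted p = 0.00419), Wdr75 (-1.02 ± 0.20, adjusted p = 0.00443), Nop2 (-1.26 ± 0.32, adjusted p = 0.0393), Nop16 (-1.90 ± 0.49, adjusted p = 0.0414), Bysl (-2.09 ± 0.55, adjusted p = 0.0445) and Gnl3 (-0.89 ± 0.24, adjusted p = 0.0483). The exception was Fbl at 0.35 ± 1.01. The count was 10 without both arrays of widest spread (257 of all genes, against 119). It was 2 or 3 with any 1 of 15 arrays left out: MycON exendin-4 8 h replicate 1, 32 h replicate 2 and 72 h replicates 1 and 3; MycON water 16 h replicate 2, 32 h replicate 2 and 72 h replicates 1 and 2; MycOFF exendin-4 32 h replicate 3 and 72 h replicate 3; and MycOFF water 4 h replicate 1, 8 h replicate 1, 16 h replicates 2 and 3 and 32 h replicate 1. The Nolc1 and Wdr75 calls held with each array left out in turn. With probe sets averaged, the Nolc1 call was lost. The calls of Nop2, Nop16, Bysl and Gnl3 were lost with any 1 of 13, 20, 25 and 38 arrays left out. A second Bysl probe set gave 0.69, 1.15, 0.23, 0.77 and 0.07 at 4, 8, 16, 32 and 72 h. With any 1 of the 15 arrays above left out, 58 to 114 of all genes were called lower, against 119.

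Markers of other cells moved at the same time. At 72 h the mean of 8 macrophage markers ran from -0.00 through a median of 2.19 to 3.39 on the 6 MycON arrays and from -0.79 through -0.17 to 0.74 on the 5 MycOFF arrays, and 4 of the 8 were called higher, among them Cd68 (4.17, adjusted p = 4.81e-05) and Lyz2 (3.29, adjusted p = 0.00647). The mean of 6 stromal markers ran from -0.91 through 1.78 to 2.91 on MycON and from -0.92 through 0.26 to 3.30 on MycOFF arrays. The mean of the beta cell markers had a median of -0.19 against 0.32. The 3′ minus 5′ deviation of the Gapdh control probe sets, a sign of RNA quality, ran from -1.23 through a median of -1.05 to 2.60 on the MycON and from -0.32 through 0.41 to 2.70 on the MycOFF arrays, which overlapped. That of Actb had medians of -0.24 and -0.21. The part of these in the 72 h result was not tested. At 4 h, where 11 members were called, the macrophage mean ran from -1.06 to 0.18 on MycON and from -0.71 to 0.06 on MycOFF arrays. At that time 0 of 8 beta cell, 0 of 6 alpha, delta and PP cell and 0 of 5 endothelial markers lay above 0. Their list medians were -0.44, -0.76 and -0.36. All 7 acinar markers lay above 0 (list median 0.63). None of these was called, and 1 in each list but the beta cell list had an unadjusted p under 0.05. The part of these at 4 h was not tested. At 32 h, where 14 members were called, it ran from 0.27 to 1.43 on MycON and from -0.97 to 0.56 on MycOFF arrays. The Gapdh deviation at 32 h had medians of -0.51 and 0.41 and that of Actb -0.36 and 0.15. The part of these at 32 h was not tested.

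Exendin-4 itself moved no member past the threshold. Without MYC, 0 of 43 members were called for exendin-4 against water (0.228% of all genes), and 1 had an unadjusted p under 0.05; the differences ran from -0.55 to 0.54 with a median of -0.11. With MYC on, 0 of 43 were called (0.0683% of all genes) and 2 had an unadjusted p under 0.05; the differences ran from -0.69 to 0.26 with a median of -0.23. The interaction, the MYC difference with exendin-4 minus that with water, passed for 0 members (0% of all genes), and 0 members had an unadjusted p under 0.05. These 3 comparisons gave 0 members under every alternative fit as well. A p above the threshold does not show that the injections act alike.

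The interactions with the largest size were those of Ncl and Rrs1. For Ncl the interaction was 0.66 ± 0.72 (adjusted p = 1.00), and the values reached down to -5.41 on a MycOFF exendin-4 array at 16 h and -3.95 on a MycON water array at 8 h. Ncl ran from -3.95 through 0.36 to 1.55 on MycON water arrays, from -3.36 through -0.22 to 0.85 on MycOFF water, from -1.03 through 0.21 to 1.49 on MycON exendin-4 and from -5.41 through -0.41 to 1.21 on MycOFF exendin-4 arrays. The 4 other Ncl probe sets gave MYC differences from 0.04 to 0.94 with water and from 0.21 to 0.90 with exendin-4. For Rrs1, which brings the 5S particle into the large subunit, the interaction was -0.54 ± 0.55 (adjusted p = 1.00). Rrs1 ran from -1.47 through 0.39 to 1.14 on MycON water and from -1.54 through -0.29 to 0.43 on MycOFF water arrays, and with exendin-4 from -4.22 through -0.11 to 0.91 and from -4.02 through 0.06 to 1.11. The groups of both genes overlapped.

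After the 20 group means were removed, the factors still rose and fell together from array to array. The median Pearson r over the 903 pairs was 0.32 across 52 arrays, and 753 pairs were above 0; the mean r was 0.28, against 0.02 over all genes tested. The 2 genes of a pair are measured on the same arrays and share their RNA, labelling and scaling, so the values are a description. Pes1 and Nob1 had the closest pair (r = 0.87). Ncl (0.85), Fbl (0.84) and Nob1 (0.84) followed the mean of the other members most closely, and Dkc1 (-0.48) and Noc4l (-0.25) ran against it.

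Other genes of the pathway were taken from a list of 91 further ribosome biogenesis factors, of which 88 were tested. Of these, 10 were called higher with water (median 0.34, 72 of 88 above 0) and 13 with exendin-4 (median 0.31, 77 of 88 above 0), and none was called lower. Among those called with at least 1 injection, the 4 with the largest single called difference were Exosc8, a subunit of the RNA exosome (2.28 ± 0.50 and 1.70 ± 0.48), Utp4, a processome subunit (1.22 ± 0.21 and 1.09 ± 0.20), Exosc5, another exosome subunit (0.91 ± 0.38 with water, not past the threshold, and 1.19 ± 0.36), and Pdcd11, a processome scaffold (1.12 ± 0.22 and 0.87 ± 0.21). At 72 h 0 of the 88 were called, 4 had an unadjusted p under 0.05, and the median was -0.07.

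Genes of the cytosolic ribosomal proteins, the cargo of these factors, did not pass. Of 78 listed genes 41 had a spread above the filter, so the least variable ones are not counted. With water 0 of 41 were called, the median was -0.06 and 0 had an unadjusted p under 0.05. With exendin-4 0 of 41 were called, the median was 0.10 and 1 had an unadjusted p under 0.05. At 16 h, where the factors had their smallest early median, the ribosomal protein genes had their largest, 0.59, with 33 of 41 above 0 and 15 with an unadjusted p under 0.05, but 0 called.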

How the data were processed

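Laser-captured islets were hybridised to Affymetrix arrays. The submitters' processing notes name GCRMA and MAS5 with no role, and nothing further about upstream steps was stated in labels or headers. The deposited log2 values (base inferred from their range, -12.3 to 12.8) were used without further scaling; the authors centred each probe set at its median over 60 arrays, as the values show (100% of probe sets, tolerance 1.0e-04). The plan to filter on mean level could not be kept with centred values, so the 40th percentile of the interquartile range (0.101) served as filter.

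One model of 20 group means was fitted to 52 arrays with limma 3.58.1 in R 4.3.3, with eBayes and Benjamini-Hochberg adjustment over 13176 genes, threshold 0.05, after a test on simulated data. All adjusted p are limma's. Promoters are from RefSeq, GRCm38.p6. Python 3.11.15, pandas 2.3.3 and matplotlib 3.10.9 were used for summaries and plots.

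The members, lists and tests were chosen with earlier results of these data known. Named with full values were the 6 largest called differences per injection, the 3 smallest p of the F test over time and the 2 largest interactions. Of other lists up to 4 (pathway) or 2 (markers) were named, by size. Alternatives were scaling, filters, probe set choice, array weights, replicate blocks and left-out arrays. The precision is limited by the number of arrays.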

Additional observations from a re-analysis of the deposited data

Results flagged for a closer look

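The MYC difference of 4 factors changed over the 5 times by limma's F test. The adjusted p was 5.03e-04 for Wdr75, 0.0116 for Dkc1, 0.0150 for Nolc1 and 0.0279 for Grwd1. Grwd1, a chaperone of a large-subunit protein, measured 1.66 at 4 h, 1.55 at 8 h, -0.21 at 16 h, 0.99 at 32 h and -0.57 at 72 h. Its other probe sets gave 0.683 and 0.739 at 4 h, 0.161 and 0.872 at 8 h and 0.164 and -0.295 at 16 h. They gave 0.910 and 0.315 at 32 h and -0.093 and -0.072 at 72 h. The Grwd1 call was lost with probe sets averaged, with array weights and with all 60 arrays fitted. The Nolc1 call was also lost with probe sets averaged and with all 60 arrays fitted. With all 60 arrays fitted the Dkc1 call was lost as well.

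The difference at 72 h was lower than the mean of the earlier times for 6 factors in limma's test. The change was -2.63 for Nolc1, -2.09 for Bysl, -1.90 for Nop16, -1.26 for Nop2, -1.02 for Wdr75 and -0.89 for Gnl3 on the log2 scale. The Nolc1 call was lost when probe sets were averaged. Bysl, at -1.22 ± 0.49 at 72 h, had the most negative value of all factors at that time. Its lowest MycON value at 72 h was -4.51, against a MycON median of -0.50. A second Bysl probe set gave 0.07 at 72 h.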

How the results depend on the processing

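Of 264 values of the named factors under alternative settings, 228 stayed on their side of the threshold, 22 lost and 14 gained a call. Among values called in the main or the alternative fit, 0 changed sign. Sign changes of values called in neither fit were not counted. Fitting all 60 arrays gave 3 members with water (126 of all genes), 11 with exendin-4 (466) and 6 at 4 h (76). It gave 0 at 16 h (43) and 2 at 32 h (75). Over time it gave 1 (17), and 0 at 72 h against the earlier times (15). The main fit called 519, 601, 208, 272, 311, 209 and 119 of all 13176 genes, in the same order. Array weights gave 11 with exendin-4, 0 at 16 h and 23 at 32 h (580, 66 and 938 of all genes). Fitting only the arrays compared gave 8 with exendin-4, 5 at 8 h and 0 at 16 h (425, 227 and 4 of all genes). At 8 h the main fit called 395 of all genes. Quantile normalization gave 10 over time and 11 at 72 h against the earlier times (358 and 226 of all genes). In the latter, no filter gave 3 (94 of 18193 genes) and the mean over probe sets 10 (222 of all genes). Leaving out the 2 arrays of widest spread was an alternative chosen after seeing the data. It gave 9 with exendin-4, 10 over time and 10 at 72 h against the earlier times (539, 308 and 257 of all genes). With 1 array left out at a time the counts ran from 11 to 16 with water, 9 to 18 with exendin-4, 5 to 13 at 4 h, 4 to 16 at 8 h, 0 to 3 at 16 h, 5 to 15 at 32 h, 2 to 8 over time and 2 to 9 at 72 h against the earlier times. The causes were not tested, and some settings also differed in their number of arrays or genes. The counts of 0 at 72 h, for exendin-4 and for the interaction stayed 0 in every setting. Scaling moved no median of all genes by over 0.1 log2 units. The members' median did move: at 16 h it was 0.34 with array weights, 0.36 with all 60 arrays, 0.40 with quantile normalization and 0.38 when probe sets were averaged, against 0.57. In the same 4 settings the uncalled medians for exendin-4 ran from -0.16 to 0.00 without MYC and from -0.13 to -0.04 with MYC, against -0.11 and -0.23.

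The replicate numbers did not pair the arrays: arrays of the same number correlated at a median r of 0.005 after group means were removed, against -0.003 for other numbers, and 20 of 52 correlated best with their own number. With the number as a replicate block the counts were 14 with water, 16 with exendin-4 and 14 at 8 h, and the others did not change. Over all genes these 3 counts were 486, 576 and 397. With 2 or 3 arrays per group, single times are the least precise.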

Other observations

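The 8 arrays that the submitters left out enter no comparison above. On them the median deviation of the 43 factors ran from -0.49 to 0.38, and the standard deviation over probe sets from 0.968 to 1.39. The mean of the beta cell markers ran from -7.14 to -0.90. In 4 of the 8 arrays the mean of the 2 lymphoid markers tested, Ms4a1 and Ptprc, lay between 6.44 and 7.54. In 3 others the mean of the stromal markers lay between 5.58 and 5.72. The array with the highest median of the factors, MycON exendin-4 4 h replicate 3 (0.38), was one of the 4 with high lymphoid markers.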
